A study of Mus musculus with 12 samples.

Results

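Th2 cells, the helper T cells of type 2 immunity, were compared with naive T cells for 5-hydroxymethylcytosine (5hmC) over 22875 mouse gene areas. They were all the gene areas with an end minus start of at least 3000 bp, out of 37544 named ones, and the shortest kept had 3001 bp and the longest left out 2999 bp. A repeated name was kept once, as the row with the highest mean of the 10 libraries made with antibodies against 5-methylcytosine (5mC) or 5hmC. The study pulled down sonicated, denatured genomic DNA of 5 T cell types with these antibodies and sequenced it. Only 1 library was made from each cell type with each antibody, so the Th2 and the naive 5hmC group hold 1 library each. Th17 cells also gave 1 IgG and 1 input library. The series names CD2(Cre)Tet2(f/f) mice, in which a Cre recombinase under the CD2 promoter acts in lymphocytes, and their wild-type littermates, on a mixed background. The labels used here tie no genotype, age, culture condition, sort or number of animals to a library, and they call the cells only Th2 cells and naive T cells.

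5hmC is made from 5mC by the Tet enzymes, and in many tissues it is found over active genes and enhancers, both as a step towards loss of methylation and as a mark of its own. Naive helper T cells that meet antigen together with interleukin 4 become Th2 cells, which switch on Gata3 and secrete the interleukins 4, 5 and 13. The genes for these 3 cytokines lie side by side with the DNA repair gene Rad50, whose introns hold a locus control region for them.

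The deposited signal is a value per gene area, rounded to 1 decimal, with an unknown number of reads behind it. With 1 library per group there was no test and no replicate error, and nothing below shows how far 2 libraries of the same cell type would lie apart. Differences are log2(Th2 signal + 0.2) minus log2(naive signal + 0.2), which understates the change of low gene areas. A gain is a difference of at least 1 and a loss one of at most -1, that is 2-fold, and 52 and 60 gene areas lay exactly on these limits. In DNA from a whole cell population, a change in the share of a cell type and a change within its cells cannot be told apart.

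Losses outnumbered gains. Of the 22875 gene areas, 824 (3.6%) were gains in Th2 cells and 2799 (12.2%) were losses, so 22.7% of the calls were gains. The median difference was -0.19, with quartiles of -0.66 and 0.24, and 8511 gene areas (37.2%) lay above 0. The naive library was the broader one, with a median signal of 16.2 and a 99th percentile of 105, against 13.9 and 74.8 in Th2. The imbalance moved with the scaling. Median-ratio scaling, which shifts Th2 against naive by 0.15, brought the median difference to -0.04 and gave 1196 gains and 1890 losses, or 38.8% gains. Centring on the median gave 1309 and 1698, or 43.5% gains. Large differences were rare in either direction: 70 gene areas were at least 4-fold higher in Th2 and 129 at least 4-fold lower. Many of them had low signals. Only 10 of the higher and 70 of the lower ones reached a signal of 10 in either library without the IgG mark defined below.

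**Figure D1:**
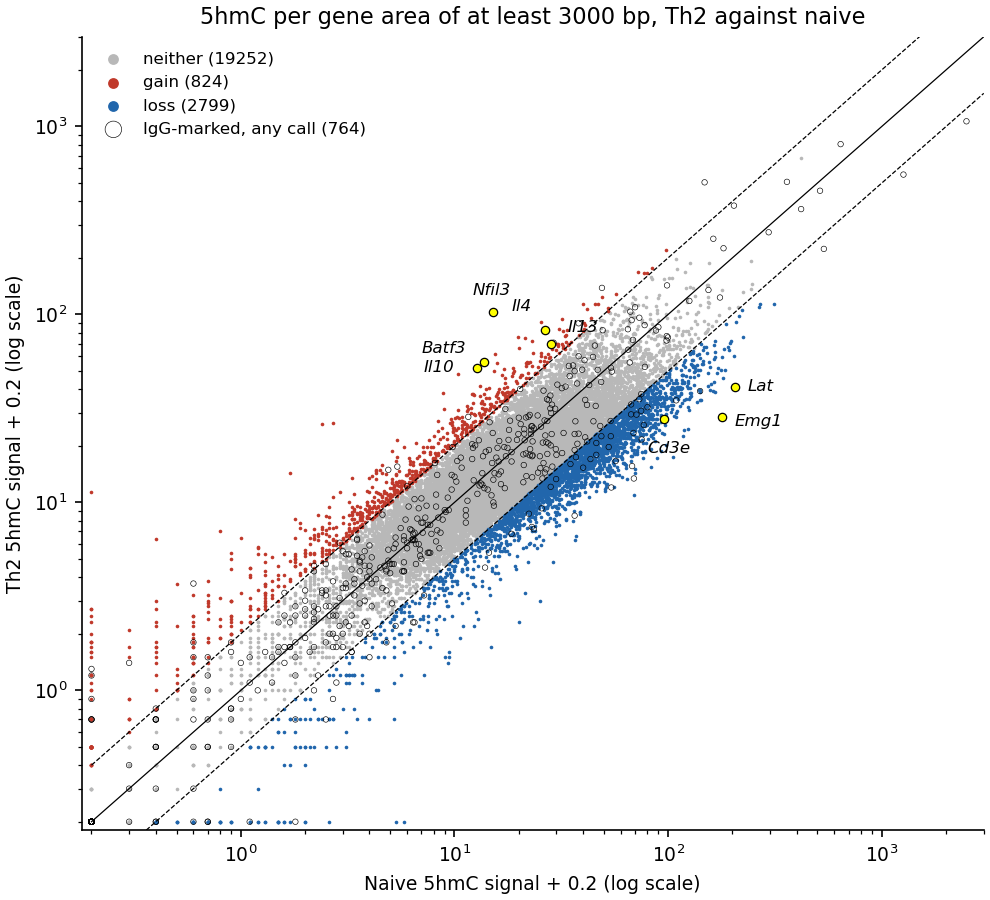
5hmC signal plus 0.2 of each gene area of at least 3000 bp in the naive library (x axis) and the Th2 library (y axis), both on log scales; the solid line marks equal values and the dashed lines 2-fold. Open circles are IgG-marked and yellow points named gene areas. The 824 gains lie mostly at low naive signal, the 2799 losses mostly at high naive signal, and Nfil3, Il4, Il13, Batf3 and Il10 stand above the upper dashed line.

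Gains and losses came from different ends of the naive range, which the rule itself favours because the naive value enters each call. The gains had a median signal of 4.4 in naive cells and 10.6 in Th2, while the losses had 36.5 and 14.8. Only 427 of the 824 gains reached a signal of 10 in either library, against 2490 of the 2799 losses. A gene area was marked as background where the IgG signal was at least 4.7, its 99th percentile, or at least 0.5 of the higher 5hmC signal. This marked 764 gene areas (3.34%), among them 26 gains and 59 losses. Gata3, the master factor of Th2 cells, was among those marked (IgG 15.1), with 99.6 in naive and 75.2 in Th2 cells. Gene areas that overlap another share signal with it and made up 26.9% of all. Without them 659 of the 824 gains and 1957 of the 2799 losses were left. Of those named here these are Gata3, Batf3, Tcf7, Lef1, Il1b, Il27ra, Stat6, Il1rap, Jak1, Cxcr6, Tox, Dgka, Zap70, Bank1, Syce1, Tuba4a, Emg1, Arhgap9, Gli1, Tceb2, Kcnrg, Hif1a, Ccnd3, Pcna, B2m, Dnmt3a, Dnmt3b, Dnmt3l, Bnip3, Car9, Ptger1, Rassf5, Gm19623, Gm4961, Tmprss4, Lrrc61, Tap2, Tapbp and Rpl13a.

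The 4 gene areas used as Th2 markers were all gains, and each had its highest 5hmC signal in the Th2 library. They had been picked for this comparison with its results known, so this describes them and tests nothing. Il4 (chromosome 11, 53425961 to 53432166, minus strand, mm9) had a signal of 26.2 in naive cells, 82.6 in Th2, 22.6 in Th1, 20.2 in the one labelled iTreg and 26.2 in that labelled Th17. Th2 was thus the only one of the 5 libraries with a high signal at Il4. Il13 (chromosome 11, 53444824 to 53448203, minus strand) had 28.1 in naive and 69.0 in Th2 cells, against 38.8 in Th1, 22.1 and 24.7 in the others. Nfil3 (chromosome 13, 53062577 to 53076407, minus strand) encodes a basic leucine zipper factor that controls cytokine genes in lymphocytes. It went from 15 to 103.0, the largest gain among the Th2 factors listed, and was also high in Th1 with 69.4 and in the library labelled iTreg with 50.2. Batf3 (chromosome 1, 192922292 to 192932821, plus strand), a related factor that pairs with Jun proteins, went from 13.5 to 55.9 and had 49.5 in Th1. At this gene area the Th1 and Th2 libraries were close, while the other two, with 15 and 15.7, stayed near naive. The names of the libraries labelled iTreg and Th17 are kept as labels only, since Il17a and Il17f were higher in the first (31.3 and 32.8) than in the second (8.8 and 5.3).

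The promoters of named gains differed widely in their number of CpG dinucleotides, and the sequences below were picked to show the range: 3 cytokine genes with few, 2 factor genes with many, and 2 factor genes of naive T cells that were losses. Each runs 5′ to 3′ on the gene's strand from 250 bases before to 50 bases after the start, from RefSeq on GRCm38.p6, with every CG in capitals. GRCm38.p6 positions are not those of mm9.
Il4 promoter: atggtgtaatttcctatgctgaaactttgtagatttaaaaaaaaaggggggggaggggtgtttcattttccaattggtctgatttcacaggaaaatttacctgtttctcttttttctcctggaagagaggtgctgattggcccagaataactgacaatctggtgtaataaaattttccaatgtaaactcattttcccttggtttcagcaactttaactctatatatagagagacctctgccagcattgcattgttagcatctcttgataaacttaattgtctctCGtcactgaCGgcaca
Il13 promoter: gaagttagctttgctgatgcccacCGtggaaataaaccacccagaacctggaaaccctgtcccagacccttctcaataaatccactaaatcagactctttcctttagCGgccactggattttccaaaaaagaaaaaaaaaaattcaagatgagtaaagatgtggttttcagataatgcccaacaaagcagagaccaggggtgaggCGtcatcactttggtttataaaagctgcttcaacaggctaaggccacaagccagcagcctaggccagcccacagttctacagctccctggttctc
Il5 promoter: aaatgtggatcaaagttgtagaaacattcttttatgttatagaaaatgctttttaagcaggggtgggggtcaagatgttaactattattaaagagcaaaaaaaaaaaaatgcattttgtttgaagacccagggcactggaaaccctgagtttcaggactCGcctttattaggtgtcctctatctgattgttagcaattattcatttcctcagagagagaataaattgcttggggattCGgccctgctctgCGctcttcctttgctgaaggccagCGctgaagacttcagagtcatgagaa
Nfil3 promoter: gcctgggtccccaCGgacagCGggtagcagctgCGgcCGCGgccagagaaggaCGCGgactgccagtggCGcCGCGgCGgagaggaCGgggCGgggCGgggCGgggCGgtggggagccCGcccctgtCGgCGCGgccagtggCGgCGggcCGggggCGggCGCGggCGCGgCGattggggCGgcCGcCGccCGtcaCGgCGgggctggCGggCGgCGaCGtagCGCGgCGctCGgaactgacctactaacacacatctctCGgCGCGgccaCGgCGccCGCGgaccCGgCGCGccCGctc
Batf3 promoter: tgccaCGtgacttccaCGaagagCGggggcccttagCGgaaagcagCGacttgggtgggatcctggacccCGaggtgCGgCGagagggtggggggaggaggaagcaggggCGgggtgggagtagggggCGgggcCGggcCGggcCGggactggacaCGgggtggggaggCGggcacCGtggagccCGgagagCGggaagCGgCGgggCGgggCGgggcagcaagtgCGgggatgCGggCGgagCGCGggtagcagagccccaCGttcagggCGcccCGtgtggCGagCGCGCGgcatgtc
Tcf7 promoter: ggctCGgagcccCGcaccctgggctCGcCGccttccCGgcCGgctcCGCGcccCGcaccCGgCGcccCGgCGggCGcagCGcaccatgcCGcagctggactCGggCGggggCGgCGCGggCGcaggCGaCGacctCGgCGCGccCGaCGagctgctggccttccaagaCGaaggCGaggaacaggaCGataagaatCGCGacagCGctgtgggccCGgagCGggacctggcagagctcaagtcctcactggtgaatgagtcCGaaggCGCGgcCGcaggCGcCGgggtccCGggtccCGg
Lef1 promoter: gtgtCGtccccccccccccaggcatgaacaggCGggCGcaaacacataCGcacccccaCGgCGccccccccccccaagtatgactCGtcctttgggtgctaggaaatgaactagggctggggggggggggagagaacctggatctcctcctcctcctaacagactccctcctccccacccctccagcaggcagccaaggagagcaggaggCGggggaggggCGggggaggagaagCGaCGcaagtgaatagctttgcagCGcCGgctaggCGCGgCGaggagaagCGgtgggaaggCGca
On GRCm38.p6 these windows are chr11:53618616-53618915 for Il4, chr11:53634653-53634952 for Il13 and chr11:53720544-53720843 for Il5. Those of Nfil3 and Batf3 are chr13:52980990-52981289 and chr1:191098164-191098463, and those of Tcf7 and Lef1 are chr11:52282965-52283264 and chr3:131110047-131110346. Il4, Nfil3, Il13 and Tcf7 read on the minus strand. Il4, Il13 and Il5 have 2, 3 and 4 CG dinucleotides in 300 bases, Nfil3 and Batf3 have 54 and 34, and Tcf7 and Lef1 have 45 and 18. The Tcf7 window holds an open reading frame from an ATG before the start used to its end. Its CG number is therefore largely that of likely coding sequence.

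Over all gene areas the 2 directions differed by promoter type. A RefSeq promoter was matched for 15037 gene areas, 416 gains and 1965 losses. The median number of CG dinucleotides was 4.5 in the promoters of gains, 20 in those of losses and 16 in all. Gains made up 6.32% of the gene areas with 0 to 4 CG dinucleotides and 1.16% of those with 30 or more, while losses went from 7.56% to 18.3%. The same 2 classes also differed in naive signal, with medians of 10.6 and 21.4, and in median length, with 14085 and 33794 bp. The part of level and length in this difference was not tested. The letters AGATAA, which contain a core that GATA factors bind, were found on either strand in 14.2% of the promoters of gains, 7.48% of those of losses and 8.35% of all. The letters TGANTCA, an AP-1 type motif of Jun and Batf proteins, were in 9.62%, 4.99% and 6.70%. Both motifs are rich in A and T, and the median GC content was 50.3% for gains, 60.7% for losses and 58.0% for all promoters. Of the 7 promoters shown, AGATAA is in that of Il13 and TGANTCA in none.

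**Figure D2:**
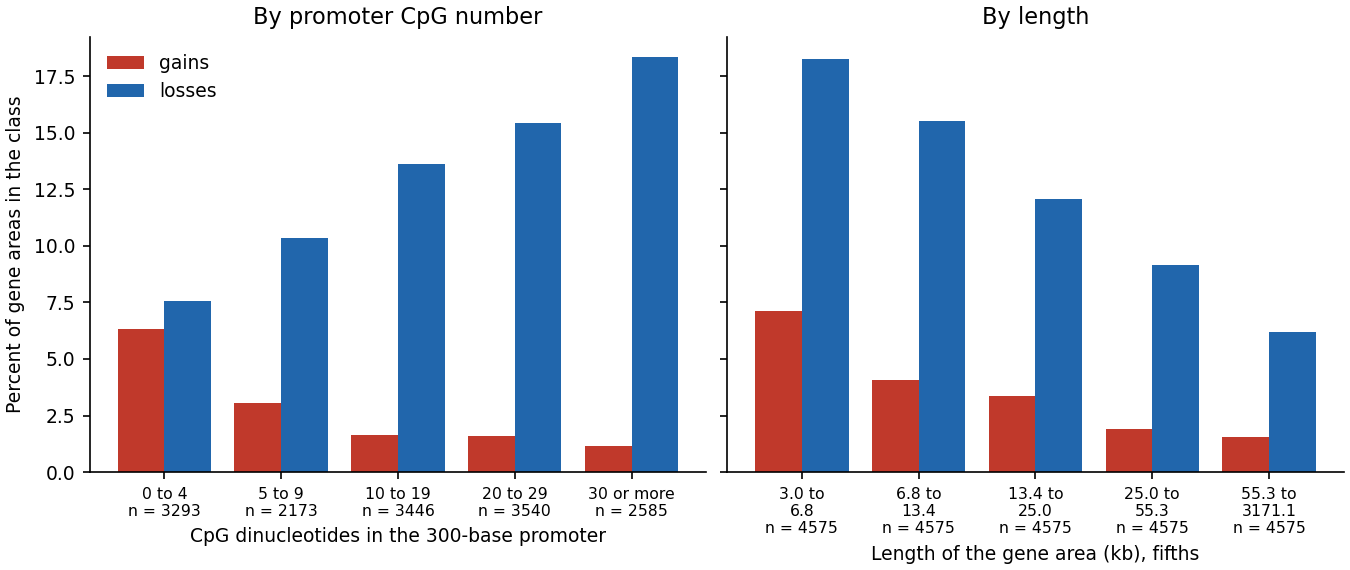
Percent of gene areas that were gains (red) or losses (blue) in Th2 against naive cells, by the number of CpG dinucleotides in the 300-base RefSeq promoter (left, 15037 gene areas) and by 5 equal classes of gene area length (right, 4575 each). Gains fell from 6.32% to 1.16% and losses rose from 7.56% to 18.3% with CpG number, and both fell with length.

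Both calls were more frequent in short gene areas. Among the 4575 shortest, of 3001 to 6784 bp, 7.10% were gains and 18.3% losses. Among the 4575 longest, from 55332 bp, these were 1.53% and 6.21%. With a minimum length of 10000 bp, 399 gains and 1566 losses remained among 15803 gene areas. The cytokine genes are short, and none of the 5 cytokine gains reached that length.

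Th2 cytokine genes had the highest median of the lists. Of 15 Th2 cytokine genes listed, 10 were long enough. Of these 5 (50%) were gains, beside 3.6% of all gene areas, and 0 losses. The list was written with earlier results of these data known and holds the markers Il4 and Il13. This share is therefore no independent support. The median difference was 1.06 beside -0.19 for all gene areas. Il10, which encodes an interleukin that restrains inflammation, had the largest gain of the list, from 12.6 in naive to 51.7 in Th2 cells, and had 29.3 in Th1. Il24, of the same cytokine family, went from 12.0 to 37.6. Il5, the growth factor of eosinophils, went from 16.9 to 40.6, while Th1 had 25.2 and the other 2 libraries 16.0 and 11.1. For Il4, Il13, Il5, Il10 and Il24, Th2 had the highest signal of the 5 libraries. The other 5 long members were not called, though Areg became a gain under either scaling. Areg, a growth factor of the epidermal type, had 4.4 and 8.2, and the chemokines Ccl1 and Ccl22 had 49.8 and 45.5, and 17.8 and 15.4. Tnfsf11 had 41.0 and 34.2, and Il6, at the low end, had 18.1 in naive and 9.6 in Th2 cells. The 5 members under 3000 bp were not counted. Il9, just short of the limit at 2969 bp, had 17.4 and 19.8, Csf2 had 24.0 and 26.3, Il3 had 12.4 and 11.9, and Il31 and Ccl17 had 17.3 and 21.8, and 14.1 and 23.6.

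Among interleukin genes by name, 7 of 28 (25%) were gains, beside 3.6% of all gene areas, and 0 losses. The gains were the 5 above, Il22 (10.0 to 24.0) and Il1b (9.8 to 20.8). Of 42 interleukin receptor genes 0 were gains and 5 (11.9%) losses, a share of losses near the 12.2% of all gene areas: Il17rb, Il27ra (95.0 to 32.3), Il6ra (106.6 to 40.1), Il21r (87.1 to 34.9) and Il7r (53.8 to 26.8). The loss of Il7r lay exactly on the limit. In the tumour necrosis factor families 1 of 9 ligand genes was a gain, Tnfsf14 with 48.7 in naive and 123.8 in Th2 cells, and 4 of 16 receptor genes were losses. These families were chosen by name after differences of their members had been seen.

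Th2 transcription factors were split. Of 20 long members of the list, 4 (20%) were gains, 2 (10%) losses and 14 neither, beside 3.6% gains and 12.2% losses of all gene areas. The share of losses was thus near the background. The median of -0.08 turned positive under median-ratio scaling (0.07) and centring (0.11). Beside Nfil3 and Batf3, the gains were Bhlhe40 and Rbpj. Nfil3 and Batf3 are markers picked with the results known, so the share of gains is no independent support. Bhlhe40 (chromosome 6, 108610622 to 108616918, plus strand) encodes a helix-loop-helix repressor that supports cytokine output in T cells. Its signal was 19.6 in naive and 75.3 in Th2 cells, with 53.1 in Th1, 37.0 in the library labelled iTreg and 37.5 in that labelled Th17, so all 4 differentiated libraries lay above naive. Rbpj, the DNA-binding partner of Notch, went from 21.5 to 55.0, with 30.3 in Th1. The losses were Stat6, which carries the interleukin 4 signal to the nucleus, from 130.7 to 63.8, and Ikzf1, which encodes Ikaros, from 49.2 to 20.6. Under either scaling Stat6 was no longer called, Atf3 became a gain and the gains numbered 5. Other factors of activated and Th2 cells lay between the limits: Atf3 had 22.8 and 42.1, Irf4 32.6 and 51.7, Batf 41.2 and 55.1, and Maf 18 and 15.8.

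Th2 receptor genes gave counts near the background. Of 15 long members 0 were gains and 2 losses, beside 3.6% and 12.2% of all gene areas, with a median of -0.31. Il17rb, the receptor of interleukin 25, went from 61.8 in naive to 15.9 in Th2 cells and had 13.9 to 25.6 in the other libraries, so all 4 lay below naive. The second loss was Il7r. At the upper end were Ccr3, the eotaxin receptor, with 6.1 and 7.5, and Il1rap with 8.3 and 10.1. Il4ra and Ccr4, 2 receptors of Th2 cells, kept high signals of 153.7 and 124.3, and of 154.3 and 115.4. Il1rl1, which encodes the interleukin 33 receptor ST2, had 31.1 and 26.1.

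**Figure D3:**
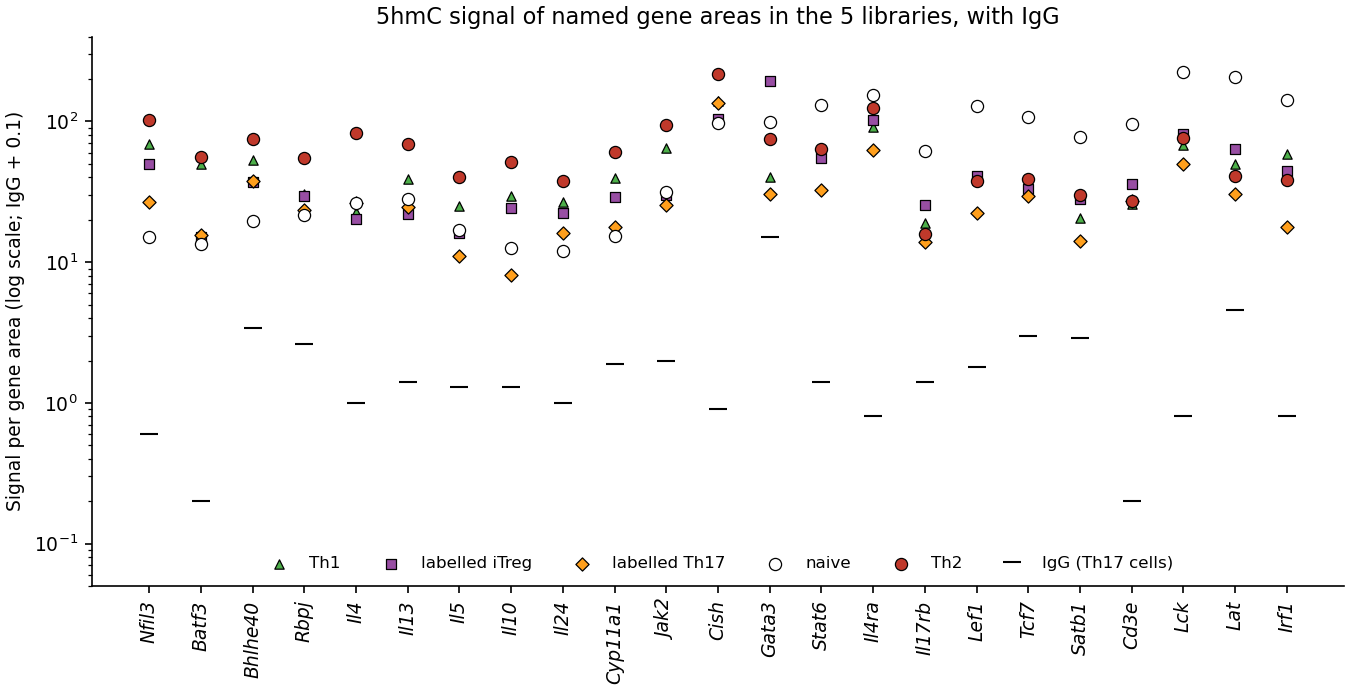
5hmC signal per gene area of 23 named genes in the 5 libraries (log scale), with the IgG signal of Th17 cells plus 0.1 as a dash. From Nfil3 to Cish the Th2 point is the highest of the 5, and from Stat6 to Irf1 the naive point is the highest; Gata3 is highest in the library labelled iTreg.

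In the JAK and STAT group, 2 of 21 genes (9.52%) were gains and 5 (23.8%) losses, with a median of -0.51. Of all gene areas 3.6% were gains and 12.2% losses. The gains were Jak2, a kinase of several cytokine receptors (31.7 in naive, 94.8 in Th2, 65.1 in Th1, and 30.1 and 25.6 in the other libraries), and Cish, a feedback inhibitor of cytokine signalling. Cish went from 97.2 to 218.6, with 104.3 to 138.8 in the other 3 libraries. Among the losses were Socs3 (74.3 to 26.7), Jak1 (64.3 to 24.4), Stat2 (50.9 to 24.3) and Stat6. Stat2 serves interferon receptors, and Socs3 restrains signals of the interleukin 6 family.

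Signature genes of other helper T cells mostly lay between the limits. Their counts stand beside 3.6% gains and 12.2% losses of all gene areas. Of 17 Th1 genes 0 were gains and 3 losses (median -0.56), among them Cxcr6 (13.2 to 5.8) and Ifngr1 (47.0 to 22.1). The highest were Tbx21, the Th1 master factor, with 21.7 and 34.9, and Ifng with 10.0 and 14.3. Of 18 Th17 genes 2 were gains, Il22 and an IgG-marked gene area, and Il6ra was the loss. Their median of -0.02 turned positive under both scalings, and at the low end Nfkbiz had 42.4 and 24.3. Of 13 regulatory T cell genes only Gpr83 was called, a loss from 29.4 to 14.6 exactly on the limit, and the median was -0.42. The highest were Il2ra, a subunit of the interleukin 2 receptor, with 39.2 and 70.5, and Ctla4, a checkpoint receptor, with 26.3 and 41.0. Tgfb1 had 127.7 and 73.8. Among 18 checkpoint and follicular helper genes, 3 were losses: Tox (32.9 to 11.3), Prdm1, a repressor gene of effector cells (50.4 to 21.0), and Sh2d1a (27.4 to 13.2). Their median of -0.04 turned positive under both scalings. Ctla4 was the highest of that list and Pdcd1lg2 next with 29.3 and 44.8.

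Naive T cell genes had the lowest median of the lists. Of 22 long members 16 were losses and 0 gains, beside 12.2% losses of all gene areas, and all 22 lay below 0, with a median of -1.26. Under median-ratio scaling and centring 12 and 11 stayed losses. The list had a naive median signal of 67.35, beside 16.2 for all gene areas, and the part of this level was not tested. Its median difference from naive was -1.3 in Th1, -1.27 in the library labelled iTreg and -1.94 in that labelled Th17. Btg1, an antiproliferative gene, fell furthest, from 55.6 to 14.3. Lef1 (chromosome 3, 130813388 to 130926251, plus strand) fell from 127.9 to 37.8, and Tcf7 (chromosome 11, 52066105 to 52096072, minus strand) from 107.2 to 39.3. Both encode HMG-box factors of the Wnt pathway that keep T cells naive. Tcf7 had 29.3 to 33.1 in the other 3 libraries, so the naive library stood alone at this gene. Foxo1, which holds the homing programme of naive cells, fell from 111.4 to 39.9, and S1pr1, the receptor for leaving lymph nodes, from 91.4 to 35.8. Ccr7, the lymph node homing receptor, fell from 147.1 to 66.9, and was no longer called under either scaling. Ets1 (46.2 and 33.8) and Dapl1 (55.3 and 40.4) differed least.

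T cell receptor signalling genes showed the same direction. Of 35 members 16 (45.7%) were losses, beside 12.2% of all gene areas, 0 were gains and 34 lay below 0. The median was -0.94, and 11 stayed losses under either scaling. The list had a naive median signal of 82.1, beside 16.2 for all gene areas, and the part of this level was not tested. Its median difference from naive was -0.99 in Th1, -1.03 in the library labelled iTreg and -1.59 in that labelled Th17. Lat, the adaptor that gathers signalling proteins at the receptor, fell furthest, from 205.7 to 41.1, with an IgG signal of 4.5 just under the limit for a mark. Dgka, a kinase that dampens diacylglycerol signals, fell from 110.3 to 30.3. Cd3e, a signalling chain of the receptor, fell from 95.6 to 27.4, the kinase gene Lck from 223.1 to 76.0, and Cd4 from 126.2 to 46.3 (IgG 4.6). At the upper end stood Malt1, an activator of NF-kappaB, with 44.3 and 59.2 but an IgG mark at 43.2, and 5830405N20Rik with 18.3 and 15.2. Bcl10, the partner of Malt1, was a loss from 29.5 to 13.8. The kinase gene Zap70 had 108.2 and 77.4, and the inhibitory receptor gene Cd5 had 152.9 and 116.2.

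**Figure D4:**
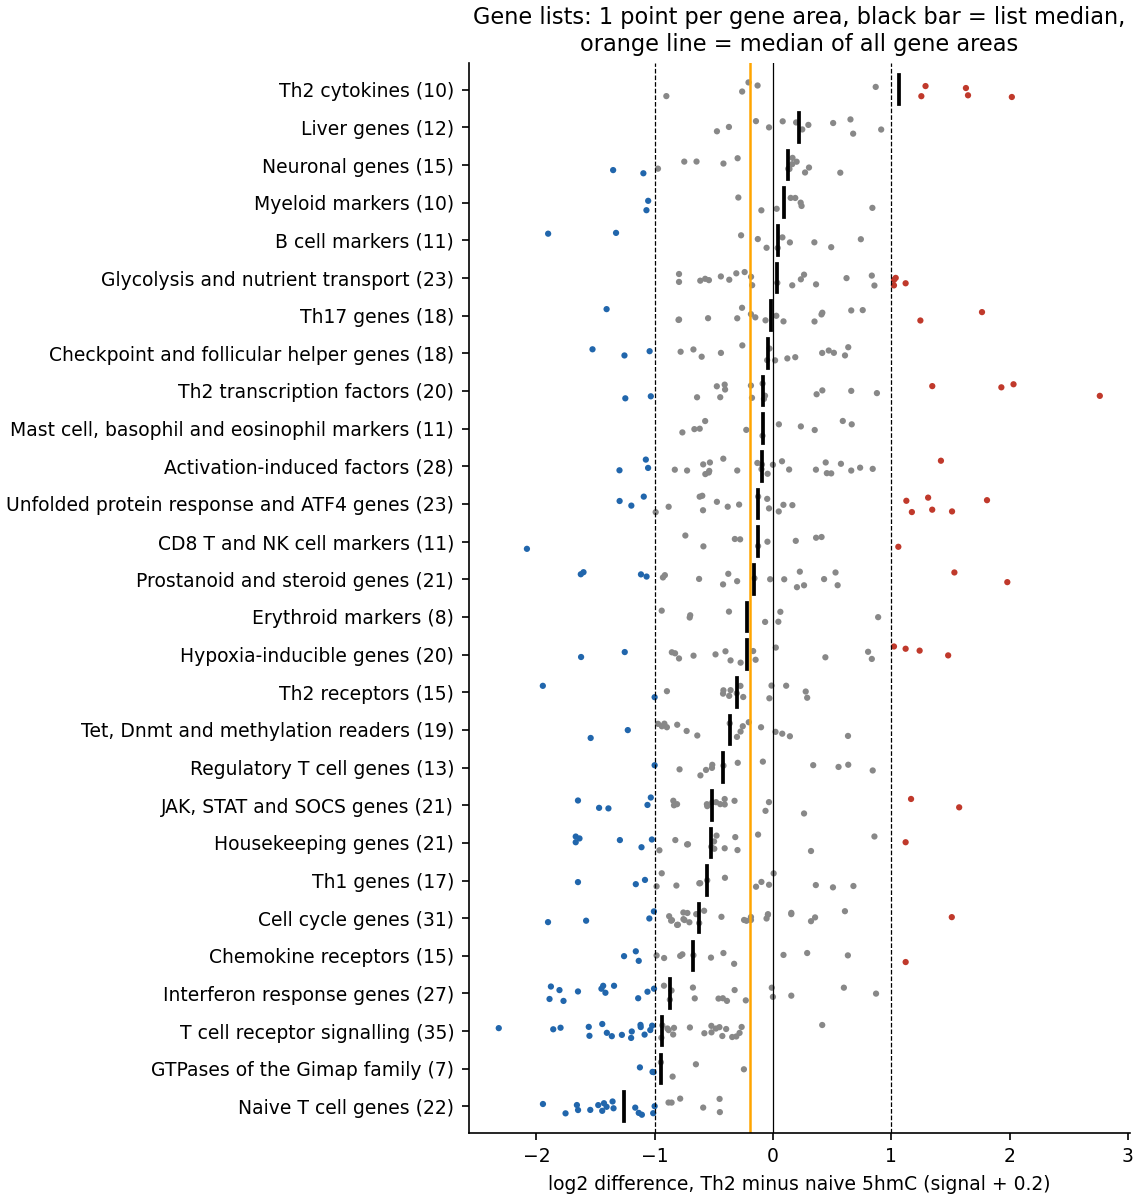
log2 difference in 5hmC (Th2 minus naive, signal + 0.2) of every gene area of at least 3000 bp in 28 lists, ordered by median. Dashed lines mark 2-fold, red points gains and blue points losses. Th2 cytokines stand at the top with a median of 1.06 and naive T cell genes at the bottom with -1.26; the orange line at -0.19 is the median of all gene areas.

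Markers of other cell types are given here since the purity of the cells was not part of the labels. None of their long members was at 0 in either library. The shares over all gene areas were 3.6% gains and 12.2% losses. CD8 T and NK markers had 1 gain and 1 loss among 11, and their summed signal was 294.7 in naive and 217.4 in Th2 cells. Their median of -0.13 turned positive under both scalings. The loss was Cd8a, from 78.0 to 18.3, larger than that of Cd4, while Cd8b1 had 80.2 and 53.3. Klrc1 was the gain, from 4.5 to 9.6. B cell markers had 2 losses among 11, Cd79a (159.2 to 42.5) and Cd79b (65.5 to 26.0), with sums of 428.1 and 299.9 and a median of 0.04 that was -0.05 without overlapping gene areas. Cd22 (32.0 and 53.7) and Bank1 (8.4 and 11.9) lay highest. Myeloid markers had 2 losses among 10, Itgam (61.7 to 29.6) and Itgax (23.3 to 11.0), with sums of 210.7 and 182.1 and a median of 0.09. Mast cell, basophil and eosinophil markers, whose cells also make interleukins 4 and 13, had 0 gains and 0 losses among 11, with sums of 197.9 and 233.0. Their median of -0.09 turned positive under both scalings. Their highest member was Kit with 78.2 and 124.2, and Fcer1a had 4.1 and 2.6. Erythroid markers had 0 calls among 8, with sums of 163.0 and 116.6 (median -0.22). Genes of unrelated tissues served for comparison: 12 liver genes had 0 calls (median 0.22), and 15 neuronal genes had 2 losses from low signals, Tubb3 (17.4 to 6.7) and Nefl (9.2 to 4.2), with a median of 0.13 that was -0.30 without overlapping gene areas. The part of other cell types in the gains and losses was not tested.

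The 15 largest gains among unmarked, named genes with a signal of at least 10 were a mixed set. Lcn13, a lipocalin gene, led with 2.5 in naive and 26.1 in Th2 cells, an IgG signal of 3.1 and 9.2 to 15.4 in the other libraries. Nfil3, Batf3, Il10 and Bhlhe40 were among them. Cyp11a1 (chromosome 9, 57862823 to 57874829, plus strand), which makes the first step from cholesterol to steroid hormones, went from 15.3 to 61.0, with 39.8 in Th1, 28.9 and 17.9. It is known for its expression in Th2 cells that make pregnenolone. Cpne6, a copine gene, went from 21.1 to 75.1, and Stc2, which encodes a stanniocalcin, from 8.7 to 31.0. A further 6, Gjd4, Mcpt9, Awat2, Snai2, Ermn and Syce1, had 2.5 to 4.4 in naive and 10.5 to 15.7 in Th2 cells.

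The 15 largest losses started from high naive signals in most cases. Tmem69 fell from 21.2 to 3.1 and the tubulin gene Tuba4a from 69.3 to 10.7. Emg1, a ribosome assembly gene, fell from 179.4 to 28.1. Zfp408 fell from 105.0 to 17.2 and Mapk7, the gene of the kinase ERK5, from 36.3 to 6.1. Cyba, a subunit of the phagocyte oxidase, fell from 123.1 to 24.3. Arhgap9 (117.0 to 22.4) and the hedgehog pathway factor Gli1 (97.7 to 20.1) overlap each other. Ypel3, Limd2, Tceb2, C2cd2l and Lat started at 55.7 to 205.7, and L1td1 and Kcnrg at 10.4 and 12.7. The naive library had the highest signal of the 5 at each of these 15 gene areas. They were chosen with that naive value, so this is no independent support.

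Activation, growth and metabolic genes were mixed. Of 28 activation-induced factors 1 (3.57%) was a gain and 3 (10.7%) were losses, near the 3.6% and 12.2% of all gene areas. The gain was Fosb (10.3 to 27.9), and the losses were Egr1 (185.6 to 89.2), Nfkbia (35.6 to 16.8) and Nfatc3 (75 to 30.4). The list median of -0.09 turned positive under both scalings. Of 23 glycolysis and nutrient transport genes 4 were gains and 0 losses, with a median of 0.04 that fell to -0.24 without overlapping gene areas. The gains were Pgk1 (12.3 to 27.0), the leucine transporter gene Slc7a5 (16.7 to 34.5), Hif1a, the oxygen-sensitive activator of glycolysis (21.1 to 43.1), and Hk2 (30.6 to 62.4). Gapdh had 38.2 and 69.4, and Ldha and Slc16a1, at the low end, had 61.0 and 35.1, and 26.5 and 15.2. Of 31 cell cycle genes 1 (3.23%) was a gain and 4 (12.9%) losses, also near the shares of all gene areas (median -0.62). The gain was Cdkn1a, which encodes the inhibitor p21, from 39.7 to 113.6, and Cdk6 was next with 17.9 and 27.4. The losses were Aurkb (57.7 to 15.3), the cyclin gene Ccnd3 (177.9 to 59.4), Pcna and Ccne1. Chemokine receptor genes had 1 gain and 3 losses among 15 (median -0.67): Cxcr2 (11.7 to 25.7, IgG 4.2), and Cxcr4 (45.5 to 18.9), Cxcr6 and Ccr7. Housekeeping genes had 1 gain and 6 losses among 21 (median -0.52), with Pgk1 and Gapdh highest and Ywhaz (52.2 to 16.3) and B2m (88.4 to 27.7) lowest.

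Genes that write, remove or read cytosine methylation gave few calls. Of 19 members 0 were gains and 2 losses (10.5%), near the background, with a median of -0.37. The losses were Idh2, whose product supplies the Tet cofactor 2-oxoglutarate (67.3 to 23.0), and the repair glycosylase gene Mbd4 (21.1 to 8.9). Tet1 and Tet3 lay just inside the limit, with 41.4 and 21.5, and 94.3 and 48.0. Tet2, the gene the series deletes in some mice, had 31.9 and 25.8, and Dnmt3a had 49.0 and 42.5. Dnmt3b, the highest member with 162.5 and 252.4, was IgG-marked at 326.1, and Dnmt3l was next with 31.4 and 34.7.

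A further 5 lists were written after gains and losses had been seen, so their counts only order what was there. Beside them stand 3.6% gains and 12.2% losses of all gene areas. Interferon response genes had 12 losses and 0 gains among 27, with a median of -0.87, with 9 losses and 1 gain under either scaling. Their naive median signal was 50.1, beside 16.2 for all gene areas. Irf7 (54.6 to 14.6) and Irf1 (141.2 to 38.3), 2 factors of interferon signalling, were lowest. Tap1 and Psmb9, for antigen processing, fell from 203.8 to 59.6 and from 128.0 to 36.5. Gbp3 (18 and 33.1) and Irf3 (32.2 and 48.9) were highest. Genes of the unfolded protein response and of its factor ATF4 had 6 gains and 3 losses among 23, with a median of -0.12 that turned positive under both scalings. The gains were Stc2, Sel1l (16.5 to 47.5), Ssr1 (18.4 to 47.1), Sesn2 (14.3 to 35.8), Asns (3.3 to 7.7) and Chac1 (43.5 to 95.3). The losses were Pdia3 (38.6 to 15.6), Xbp1 (24.1 to 10.4), a factor of secretory cells, and Herpud1 (53.3 to 24.9). Hypoxia-inducible genes had 4 gains and 2 losses among 20 (median -0.22). Bnip3 (9.9 to 28.0) and Egln3 (25.2 to 59.8) led, and Pdk1 (79.2 to 25.6) and Car9 (41.5 to 17.3) were the losses. Prostanoid and steroid genes had 2 gains and 4 losses among 21, and their median of -0.16 turned positive with centring (0.03). The gains were Cyp11a1 and Ptger2, a prostaglandin E receptor gene (9.4 to 27.6), and Ptger1 (78.1 to 25.2) and Tbxa2r (79.9 to 26.2) fell furthest. Hpgds, the haematopoietic prostaglandin D synthase gene, fell from 19.3 to 9.1 and Hsd3b1 from 5.0 to 2.2. Gimap genes, GTPases of lymphocyte survival, had 3 losses among 7 (median -0.95), none of which was called under either scaling. Their naive median signal was 65.0. Gimap5 (50.6 to 23.1) and Gimap3 (65.0 to 32.0) were lowest, and Gimap6 (45.2 and 38.1) and Gimap7 (60.1 and 38.2) highest.

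The Th2 cytokine locus held gains and losses side by side. Within 250 kb of the start of Il4 lie 12 long gene areas, of which 3 were gains (Il4, Il13 and Il5) and 3 losses. Of all gene areas 3.6% were gains and 12.2% losses. Rad50, between Il13 and Il5, had 16.7 in naive and 30.1 in Th2 cells, under the limit, and 9.9 to 20.1 in the other libraries. Th2 therefore had the highest signal at all 4 neighbours. On the far side of Il4, Kif3a had 25.4 and 28.4. Irf1 (chromosome 11, 53583515 to 53591875, plus strand), 158 kb from Il4, fell from 141.2 to 38.3, and Gdf9, a growth factor gene of oocytes 179 kb away on the other side, from 43.6 to 12.4. The predicted gene Gm12216 next to Irf1 fell from 59.2 to 29.3.

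The cluster around Il10 on chromosome 1 also held gains, with a single loss. Of 13 long gene areas within 250 kb, 2 were gains and 1 a loss, beside 3.6% gains and 12.2% losses of all gene areas. Il24 and Il10 gained, while Il20 between them had 19.3 and 32.2, Il19 had 14.4 and 12.5, and Mapkapk2 on the other side had 36.9 and 34.7. The gain was thus not shared by Il19, the gene area next to Il10. Faim3 had 20.3 and 29.4, and Rassf5, a Ras effector gene 157 kb away, fell from 57.8 to 26.0. Dyrk3 had 49.2 and 82.2 and was IgG-marked at 4.7.

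**Figure D5:**
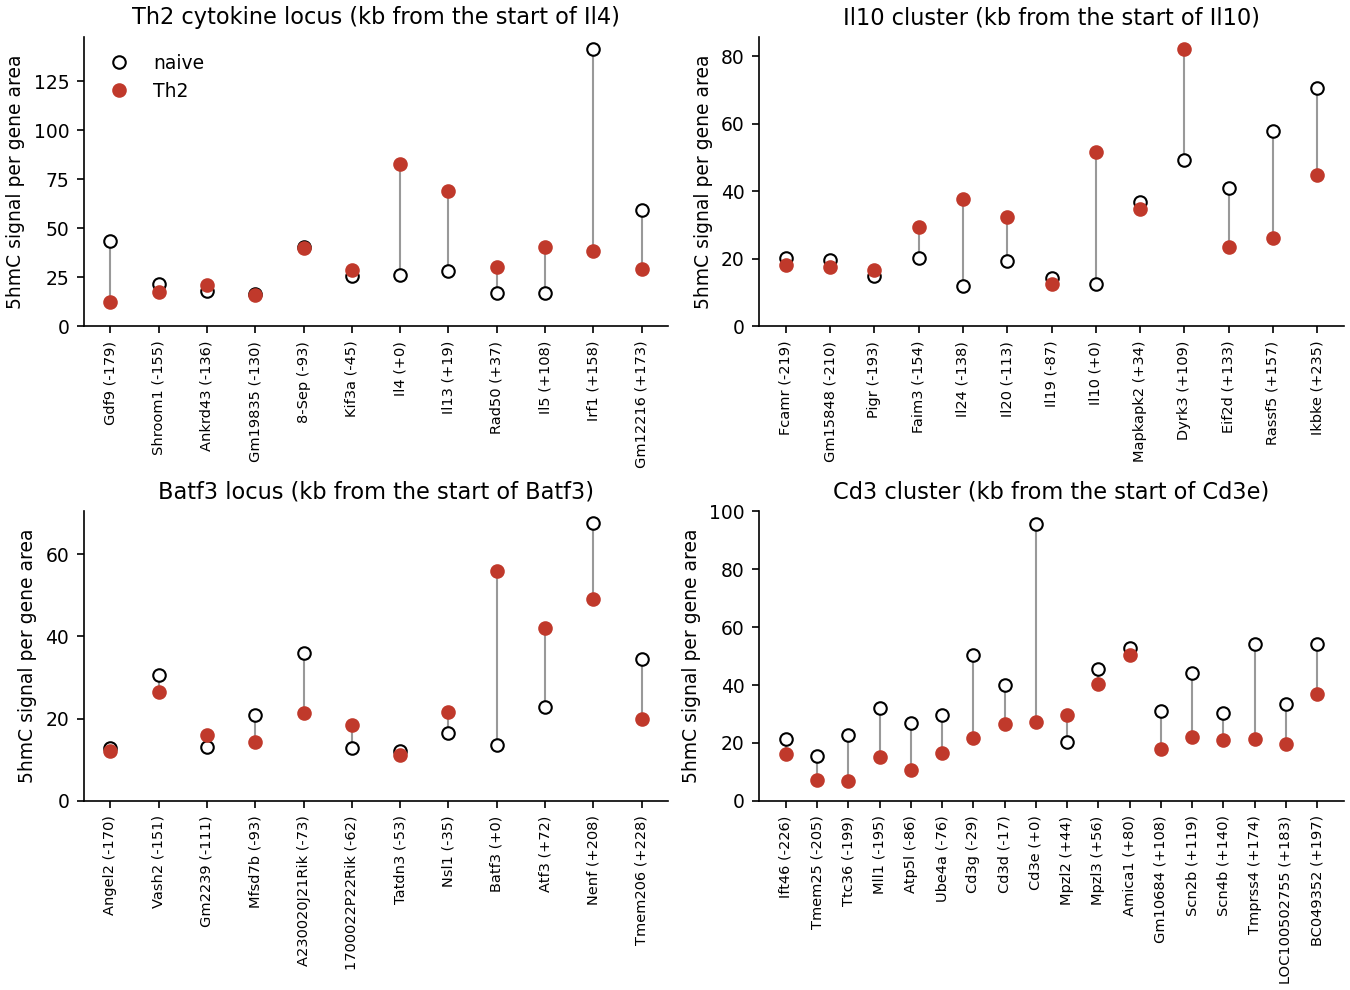
5hmC signal in naive (open) and Th2 (red) cells for each gene area of at least 3000 bp near Il4, Il10, Batf3 and Cd3e, with its distance in kb from the anchor's start in brackets. Il4, Il13 and Il5 rise at the Th2 cytokine locus while Irf1 and Gdf9 fall; Il24 and Il10 rise, and Cd3e and Cd3g fall, while Mpzl2 next to Cd3e goes from 20.4 to 29.5.

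At Nfil3 and Batf3 the factor gene was the only gain called among the long gene areas within 250 kb. The counts at these loci stand beside 3.6% gains and 12.2% losses of all gene areas. Around Nfil3, 1 of 4 was a gain, and its neighbours Auh and Ror2 had 43.6 and 69.3, and 15.7 and 20.5. Around Batf3, 1 of 12 was a gain, and Atf3, another leucine zipper factor gene 72 kb away, had 22.8 and 42.1. Atf3 became a gain under either scaling. Around Gata3, 0 of 9 were gains and 1 a loss, Kin (72.5 to 31.9), and 3 were IgG-marked, Gata3 itself among them. In the library labelled iTreg Gata3 had 194.9, and in those labelled Th1 and Th17 40.1 and 30.4.

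Most other cytokine and receptor loci gave few calls. Their counts stand beside 3.6% gains and 12.2% losses of all gene areas. Around Ifng, Il22 and its copy Iltifb (10.6 to 26.8) were gains, and the other 4 gains there were predicted genes with at most 2.5 in Th2 cells; reads of such near copies may be split between them. The loss there, Gm9044, had 0.4 and 0.0. Around Il1rl1, Il2 and Il9 0 of 7, 7 and 7 gene areas were called. Il2 had 16.9 and 21.8, and Il21, 102 kb from it, had 59.6 and 76.1. Around Ccr3 only Cxcr6 was a loss, around Ctla4 only the predicted gene Gm11579 (71.6 to 33.6), and around Il17a (7.6 and 4.3) 2 gene areas were losses, among them Paqr8 (32.5 to 13.1). Around Gzmb, 2 of 12 were gains: Mcpt9 (2.5 to 10.5) and Gzme (4.4 to 14.1), both from low signals, while Gzmb had 18.9 and 17.1. Around Il6, the overlapping predicted genes Gm19623 and Gm4961 were the gains. Tnfrsf4, which encodes the costimulatory receptor OX40, is too short to be counted at under 3000 bp, and had 52.5 in naive and 109.9 in Th2 cells, while 7 of the 24 long gene areas around it were losses.

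Around Cd3e 7 of 18 gene areas were losses and 0 gains, beside 12.2% and 3.6% of all gene areas. The chain genes Cd3g and Cd3e fell from 50.3 to 21.8 and from 95.6 to 27.4, and Cd3d had 40.0 and 26.7. The other losses were Tmem25 (15.4 to 7.2), Ttc36 (22.8 to 6.8), Mll1 (32.1 to 15.3), Atp5l (26.9 to 10.7) and Tmprss4 (54.3 to 21.2), so they reached beyond the T cell genes. In the cluster around Gimap4 (82.7 and 42.8) 4 of 19 were losses and 1 a gain, 1600015I10Rik (2.1 to 8.4), with Lrrc61 (28.6 to 12.6) as the loss outside the family.

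Calls of both directions had neighbours of the same direction more often than all gene areas did. A gene area that was a loss had a next gene area within 100 kb that was also a loss in 32.6% of 2515 cases, beside 13.1% for all such neighbours. For gains this was 14.5% of 636 cases beside 3.37%. The next gene area was the nearest one downstream that did not overlap the first, though gene areas that overlap each other can have the same next one. In 1-Mb bins with at least 5 gene areas, 18 of 1616 held 50% or more losses and 0 held as many gains, where losses were 12.2% and gains 3.6% of all gene areas. The densest, on chromosome 11 from 106 to 107 Mb, had 15 losses among 22 gene areas. Among them were Limd2 (92.2 to 18.5), the chromatin remodelling subunit gene Smarcd2 (58.4 to 19.6), the adhesion gene Icam2 (64.5 to 22.8), the helicase gene Ddx5 (42.4 to 15) and Cd79b, while Pecam1 had 124.6 and 67.1. The major histocompatibility region on chromosome 17 from 34 to 35 Mb had 26 losses among 57. Tap1, Psmb8 (144.7 to 54.1), Psmb9 and Tap2 (136.7 to 60.7) were among them, whereas Tapbp had 135.1 and 100.1 and the class II gene H2-Ab1 12.6 and 18.5.

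By chromosome, losses ran from 6.66% on X to 17.9% on 11, the 32 gene areas of Y aside, and gains from 2.09% on 8 to 8.68% on 14. Gains on chromosome 14 came in part from predicted genes, with 12 of 32 gene areas between 44 and 45 Mb. Gene families of other tissues leaned to gains from low signals, beside 3.6% gains and 12.2% losses of all gene areas. Of 196 vomeronasal receptor genes 25 (12.8%) were gains and 10 (5.10%) losses, and 22 were IgG-marked. Of 77 olfactory receptor genes 9 (11.7%) were gains and 1 (1.30%) a loss, and 2 were IgG-marked. The naive medians of these families were 4.0 and 6.5. In contrast 12 of 14 protocadherin alpha gene areas were gains from a naive median of 17.3 to 36.3 in Th2 cells. These overlap each other and share their last exons, so they count nearly as 1 region. Ribosomal protein genes had 13 losses (31.0%) and 0 gains among 42, for example Rpl13a (124.2 to 40.3), beside 12.2% of all gene areas. Mitochondrial ribosomal protein genes had 10 losses among 63 (15.9%), nearer to that background. The naive medians of these ribosomal families were 34.5 and 19.5, beside 16.2 for all gene areas.

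The 5mC signal was low throughout. At the gains, 5mC had medians of 0.5 in naive and 0.4 in Th2 cells, and at the losses 0.9 and 0.9, so values lay a few rounding steps above 0. It was lower in Th2 at 52.4% of the gains, 41.4% of the losses and 52.3% of all gene areas, and higher at 18.3%, 39.5% and 26.1%. A 2-fold difference in 5mC was seen at 3 gains upwards and 20 downwards, at 8 losses upwards and 19 downwards, and at 54 and 218 of all gene areas. Il4 had 1.3 and 1.5, Il13 2.2 and 2.3, Nfil3 1.1 and 0.9, Lef1 0.5 and 0.8, and Lat 1.0 and 1.4.

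Seen side by side, the gene areas chosen in Th2 also differed from naive in the other libraries, which share the naive library with this comparison. At the 824 gains the median difference from naive was 1.22 in Th2 by choice, 0.83 in Th1, 0.79 in the library labelled iTreg and 0.72 in that labelled Th17. At the 2799 losses it was -1.26 in Th2 by choice, -1.14 in Th1, -1.06 and -1.47. The naive value enters all 4 differences, so these medians are no independent support.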

How the data were processed

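DNA of 12 libraries was examined in 1 table with 37752 rows and 0 columns left unused. The authors deposited 1 signal value per gene area and library, rounded to 1 decimal, with mm9 coordinates. CASAVA 1.7.0 is named in the submitters' processing notes, and how reads were aligned, counted and scaled is not given in the sources used here. Python 3.11.15 with numpy 2.4.6 and pandas 2.3.3 gave all values, and the calculation was tested on simulated data.

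Lists, loci and genes were chosen with earlier results of these data known. Named are the 4 markers, the 15 largest differences each way among unmarked, non-predicted genes with a signal of at least 10, the 2 highest and 2 lowest members of each list described (every call for the Th2 lists), and the anchor and called gene areas of each locus. Further members of the lists were named after their values were seen. The 10 alternatives changed the pseudocount, scaling, length minimum, low-value filter, IgG handling or overlap. Genotype and depth per library are not given, so no interval or test was computed. RefSeq identifiers matched 31692 of 37544 gene areas. A few gene areas that the rule names are not reported here.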

Additional observations from a re-analysis of the deposited data

How the results depend on the processing

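No paired analysis was possible because each group holds 1 library, and for the same reason no library could be left out. From 824 gains, the number went to 520 with a pseudocount of 1, to 1309 when centred on the median difference, to 2867 with no length minimum, to 399 with a minimum of 10000 bp and to 480 with the filter on low values, a mean of at least 3.31. From 2799 losses, it went to 1698 when centred, to 5582 with no length minimum and to 1566 at 10000 bp. The other settings moved these counts by less than 1.5 times. The median of the Th2 cytokine list turned to -0.26 at 10000 bp, where only Tnfsf11 of its members remains. Of 162 named gene areas past 2-fold none changed direction, but 38 were no longer called when centred, 34 with median-ratio scaling and 12 with a pseudocount of 1. The depth is unknown, so the precision of low values is too.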
